A study of Homo sapiens with 11 samples.

Results

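ISG15 and the 5 genes that attach it to proteins or remove it were examined in HCT116, an established line of human colorectal cancer cells. The members were chosen by symbol in the authors' deposited gene table: ISG15, UBA7, UBE2L6, HERC5, HERC6 and USP18, 6 of 58699 genes, and each symbol was found once. All groups carried an siRNA. The control siRNA was against luciferase (siLuc) and the other against Staufen1 (siStau1), a protein that binds double-stranded RNA. Cells received the solvent DMSO or decitabine (DAC), an inhibitor of DNA methylation, at 500 nM for 5 days. Each siRNA was combined with each drug treatment, and these 4 total RNA groups had 2 libraries each. By its title, the study concerns an immune response to blocked DNA methylation that runs through stabilised RNA duplexes of endogenous retroviruses.

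ISG15 is a ubiquitin-like protein strongly induced by interferons. It is attached to lysines of other proteins by a cascade that parallels that of ubiquitin, with UBA7 as the activating enzyme, UBE2L6 as the conjugating enzyme and HERC5 as the main ligase in human cells. HERC6 is the neighbouring paralog of HERC5 and serves as the main ISG15 ligase in mice. USP18 removes ISG15 from proteins and, apart from that activity, restrains signalling at the type I interferon receptor. The genes of the cascade are themselves interferon-stimulated, so in epithelial cells the modifier and its enzymes usually appear together.

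The table gives 1 FPKM value, a fragment count scaled to transcript length and library size, per group and none per library. The depth is therefore unknown and no value carries an SD. Calls are those of the authors at a q-value, a p-value adjusted for multiple testing, under 0.05. Log2 ratios were computed here from FPKM with 0.1 added to each group. The labels do not say whether the 2 libraries of a group came from separate cultures. Any spread between libraries that enters the p-values may therefore be technical, and it cannot be seen in the group values. STAU1, the targeted gene, had 35.5 FPKM with DMSO and 33.7 with DAC in siLuc cells, and 29.98 with DMSO and 27.1 with DAC in siStau1 cells. The authors' deposited table called neither difference in STAU1 between siStau1 and siLuc, with q-values of 0.767 in DMSO and 0.685 in DAC, so siStau1 names the label and not a measured loss of the mRNA. Of 7 epithelial markers, 6 were at 1 FPKM or more in every group, and VIL1 was below that in all groups. Of 7 markers of blood, endothelial and fibroblast cells, between 0 and 3 reached 1 FPKM in a group. Fewer cells that express a gene and less RNA per cell cannot be told apart in these bulk samples.

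The promoters of the modifier and of the paired ligases are shown because all members were lowest in siStau1 DMSO and because the core of the interferon-stimulated response element, the site of the factor that holds STAT2 and IRF9, can be searched for in them. RefSeq windows (GRCh38.p14) of 300 bases, from 250 before to 50 after the transcript start, were matched by symbol for 4 members. The letters searched were GAAANNGAAA on either strand, and matches are in capitals, where overlapping matches form 1 run.

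ISG15, chr1:1013247-1013546, plus strand: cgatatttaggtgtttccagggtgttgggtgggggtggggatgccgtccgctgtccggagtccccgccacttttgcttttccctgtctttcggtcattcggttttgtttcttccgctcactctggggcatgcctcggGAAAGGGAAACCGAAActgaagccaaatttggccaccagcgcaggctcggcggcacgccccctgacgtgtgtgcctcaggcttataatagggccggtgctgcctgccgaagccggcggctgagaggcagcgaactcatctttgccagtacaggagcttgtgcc
HERC5, chr4:88456869-88457168, plus strand: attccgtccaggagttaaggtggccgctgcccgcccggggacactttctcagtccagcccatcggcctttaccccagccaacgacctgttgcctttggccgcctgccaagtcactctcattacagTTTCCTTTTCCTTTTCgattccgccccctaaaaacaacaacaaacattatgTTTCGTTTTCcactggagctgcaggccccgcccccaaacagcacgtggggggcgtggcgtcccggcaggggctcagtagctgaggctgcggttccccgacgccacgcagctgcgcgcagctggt
HERC6, chr4:88378602-88378901, plus strand: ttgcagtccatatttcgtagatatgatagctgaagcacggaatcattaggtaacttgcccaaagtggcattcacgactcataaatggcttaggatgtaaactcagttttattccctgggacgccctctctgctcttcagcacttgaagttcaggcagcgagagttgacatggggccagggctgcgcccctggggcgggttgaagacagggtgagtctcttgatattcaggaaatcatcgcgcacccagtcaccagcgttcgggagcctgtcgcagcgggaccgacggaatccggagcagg

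The ISG15 window held 2 overlapping matches on the strand of the gene, between 113 and 98 bases before the start. The HERC5 window held 3 on the opposite strand, of which 2 overlap between 125 and 110 bases before the start and 1 lies between 74 and 65 bases before it. The HERC6 window and both UBE2L6 windows held 0, which says only that these letters are not in those 300 bases. Of all 35116 promoter windows, 3.57% held at least 1 match and 0.259% at least 2. Among genes called lower in siStau1 DMSO than in siLuc DMSO, ISG15 and HERC5 included, 18 of 44 with a window held a match. Among genes called higher it was 1 of 14, and among genes tested 399 of 9975. The called genes come from the same values that prompted the search, and the difference in shares was not tested. The CpG count was 20 in the ISG15 window, 21 in HERC5, 16 in HERC6 and 32 and 41 in the 2 UBE2L6 windows, and the median of all windows was 14. A letter match is no measured binding, and methylation of these windows was not analysed here.

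**Figure D1:**
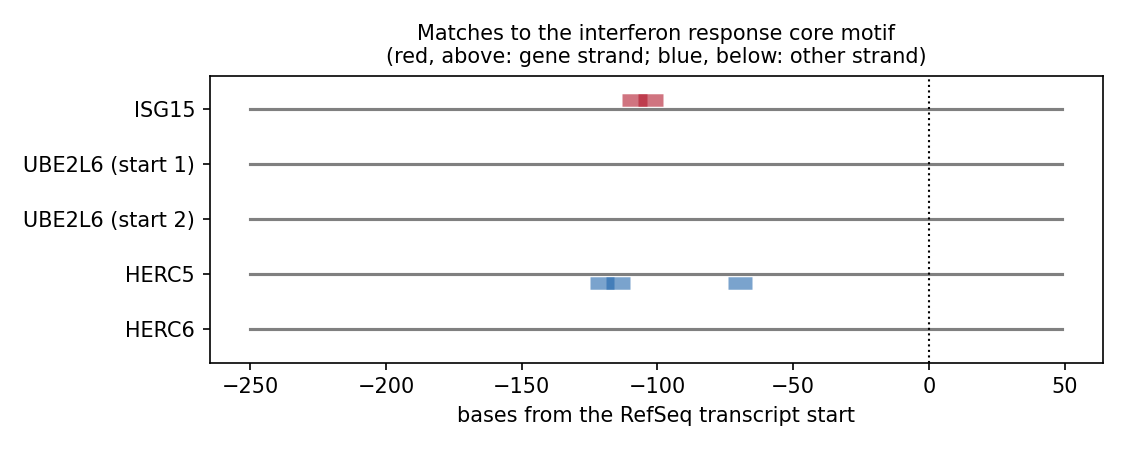
Position of the core motif matches along the promoter windows of the 4 members matched in RefSeq, in bases from the transcript start (dotted line). The 2 matches of ISG15 overlap on the gene strand, the 3 of HERC5 lie on the other strand, and the lines of UBE2L6 and HERC6 are empty.

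The modifier stood far above its enzymes. ISG15 (ENSG00000187608.9, chromosome 1, 1001138 to 1014540, plus strand, GRCh38) had 1359.6 FPKM with DMSO and 4708 with DAC in siLuc cells, and 320.0 with DMSO and 2065 with DAC in siStau1 cells. Its rank among 19940 protein-coding genes was 72, 3, 271 and 24 in these groups. As a share of the summed protein-coding FPKM it made up 0.228%, 0.783%, 0.0567% and 0.379%. The 2 DAC groups were both above the 2 DMSO groups, and within each drug treatment the siStau1 group was the lower one.

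Neighbouring levels in this order were told apart by the authors' deposited table at the top (siLuc DAC against siStau1 DAC, q-value 0.0187) and at the bottom (siLuc DMSO against siStau1 DMSO, q-value 0.00162), but not in the middle (siStau1 DAC against siLuc DMSO, q-value 0.339). ISG15 is a short gene, with a longest transcript of 787 bases and 63.4% GC. None of its 50-base stretches occurs in a transcript of another annotated gene. The gene model spans 2 genes on the minus strand. One of them, the processed pseudogene AL645608.3, had 93.5, 59.0, 96.2 and 60.7 FPKM in the order of groups above, a different course from that of ISG15. Whether the authors' counting used strand is not given in the sources used here, so reads of overlapping genes may be mixed.

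The activating enzyme was the scarcest component. UBA7 (ENSG00000182179.12, chromosome 3, 49805207 to 49813946, minus strand) had 1.31 FPKM with DMSO and 5.14 with DAC in siLuc cells, and 0.235 with DMSO and 1.91 with DAC in siStau1 cells. The order of groups was that of ISG15, and the highest level was 21.9 times the lowest. No pair of groups was called for UBA7 in the authors' deposited table, where the smallest q-value was 0.0568, for siStau1 DAC against siLuc DAC. The lowest level behind its wide fold is under 1 FPKM. UBA1, the activating enzyme of ubiquitin, was at 46.6 FPKM in siLuc DMSO, 99.2 with DAC, 39.95 in siStau1 DMSO and 75.9 with DAC, and stood above UBA7 by 35.5, 19.3, 170.3 and 39.8 times in that order of groups.

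UBE2L6 (ENSG00000156587.15, chromosome 11, 57551656 to 57568284, minus strand), the conjugating enzyme, had 71.4 FPKM with DMSO and 109.9 with DAC in siLuc cells, and 27.2 with DMSO and 60.5 with DAC in siStau1 cells. Both siLuc groups were above both siStau1 groups. Of the neighbours in this order, the authors' deposited table separated the lowest pair alone, siStau1 DAC from siStau1 DMSO, with a q-value of 0.0234. UBE2L3, its paralog on the ubiquitin side, was called in none of the 4 comparisons of drug or siRNA. Those comparisons called between 0.799% and 13.5% of all genes tested. UBE2L3 was at 37.4, 31.3, 50.7 and 34.3 FPKM. UBE2L6 therefore stood above UBE2L3 in 3 groups, by 1.91, 3.51 and 1.76 times in siLuc DMSO, siLuc DAC and siStau1 DAC respectively, and at 0.536 of it in siStau1 DMSO.

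The ligase HERC5 (ENSG00000138646.8, chromosome 4, 88457117 to 88506163, plus strand) had 56.4 FPKM with DMSO and 55.7 with DAC in siLuc cells, and 27.4 with DMSO and 41.1 with DAC in siStau1 cells. It was the member with the narrowest range, the highest level being 2.06 times the lowest, and the sole member whose highest group was siLuc DMSO. No neighbouring pair in its order was called in the authors' deposited table, with q-values of 0.984, 0.510 and 0.384 from the top down.

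HERC6 (ENSG00000138642.14, chromosome 4, 88378739 to 88443111, plus strand) lies 14006 bases from HERC5 and had 22.5 FPKM with DMSO and 23.9 with DAC in siLuc cells, and 10.2 with DMSO and 21.1 with DAC in siStau1 cells. Of these levels 3 lie close together, and the 10.2 FPKM of siStau1 DMSO is apart. Down this order the q-values in the authors' deposited table were 0.929, 0.925 and 0.0609. HERC5 was above HERC6 in every group, by between 1.95 and 2.69 times. The other HERC genes, whose products are not known as ISG15 ligases, ranged from 2.33 to 26.2 FPKM. HERC1, HERC2, HERC3 and HERC4 were called in none of the 4 comparisons of drug or siRNA. Those called between 0.799% and 13.5% of all genes tested.

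USP18 (ENSG00000184979.9, chromosome 22, 18149899 to 18177397, plus strand), the protease that reverses the reaction, had 28.3 FPKM with DMSO and 48.4 with DAC in siLuc cells, and 6.78 with DMSO and 31.4 with DAC in siStau1 cells. The order of groups was again that of ISG15, and the lowest step was the one called among neighbours in the authors' deposited table (siLuc DMSO against siStau1 DMSO, q-value 0.00162). Of the 50-base stretches of its longest transcript, 23.0% also occur in USP41, so reads could be shared between them. USP41 had at most 0.183 FPKM in any group.

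**Figure D2:**
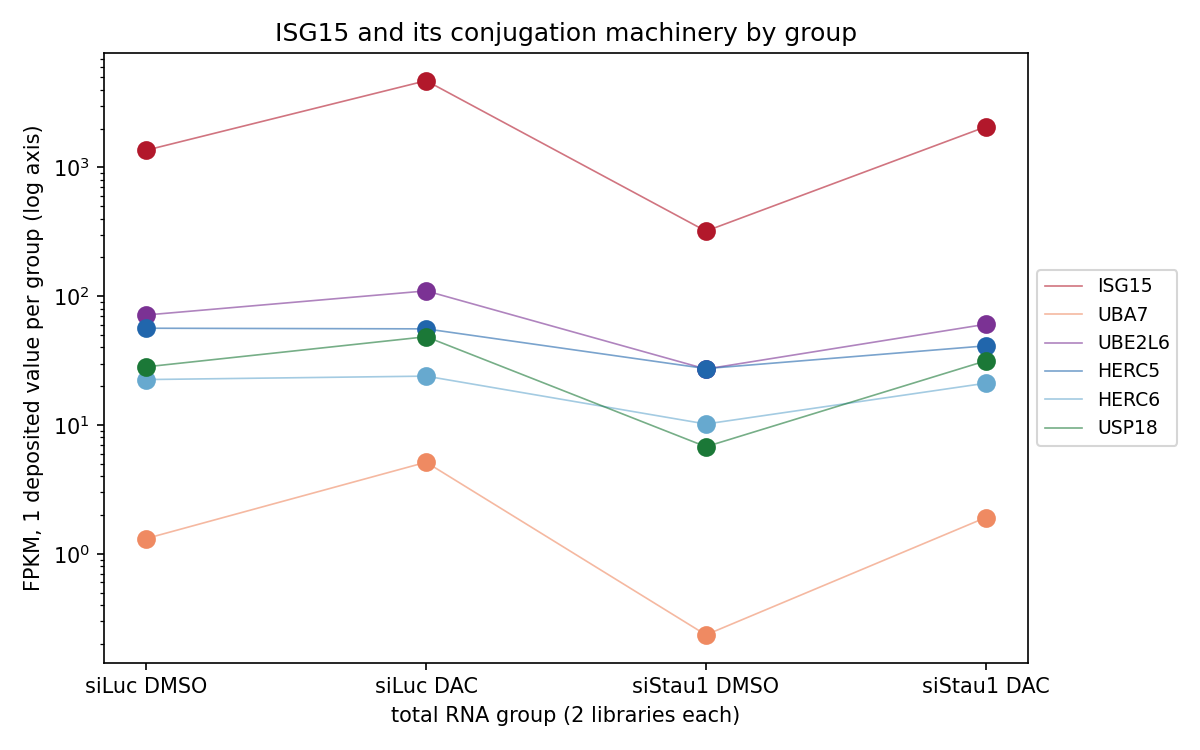
FPKM of the 6 members (log axis) in the 4 total RNA groups, 1 deposited value per group, with lines joining the points of a gene only as a guide. All 6 genes are lowest in siStau1 DMSO, and all but HERC5 are highest in siLuc DAC.

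All 6 members were lowest in siStau1 DMSO, the place of 36.6% of the 12610 protein-coding genes with at least 1 FPKM in any group. The highest group was siLuc DAC in 5 members and in 45.8% of those genes. The likeness of courses within the 4 groups was measured as the Euclidean distance between log2 profiles, each centred on its own mean. The paired ligases HERC5 and HERC6 were near each other, at a distance of 0.34 with the pseudocount of 0.1, 0.32 with 1 and 0.35 with 0.01. ISG15 and UBA7 were at 0.14, the smallest distance of a pair of members with 0.1, but at 1.24 with a pseudocount of 1 and 0.37 with 0.01, since UBA7 is under 1 FPKM in siStau1 DMSO. ISG15 and HERC5 were far apart, at 2.16 with 0.1 and 2.17 with 1. Outside the members, the protein-coding genes nearest to ISG15 were PARP10 (0.20), TM4SF19, ZNF461, CNTD2 and ANKRD2 (0.28). PARP10, an ADP-ribosyltransferase, had 6.61 FPKM with DMSO and 27.3 with DAC in siLuc cells, and 1.78 with DMSO and 11.5 with DAC in siStau1 cells. This ranking leans on genes with low values: with a pseudocount of 1 in place of 0.1, 1 of the 5 remained, PARP10. It rests on 4 points per gene and is a description.

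Without decitabine, siStau1 DMSO against siLuc DMSO, most members were lower with siStau1. ISG15, UBE2L6, HERC5, HERC6 and USP18, 5 of the 6, were called lower in the authors' deposited table and 0 were called higher. Of the 15893 genes tested there, 0.799% were called, 0.333% higher and 0.466% lower. The log2 ratio fell by 2.09 for ISG15, by 1.39 for UBE2L6, by 1.04 for HERC5, by 1.14 for HERC6 and by 2.04 for USP18. The modifier and the protease were thus at 23.5% and 24.0% of their control level, and the ligases near 45.2% and 48.6%. UBA7 had a log2 ratio of −2.08 (q-value 0.586 in the authors' deposited table), or −0.91 with a pseudocount of 1.

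The median log2 ratio of the 6 members was −1.72, beside −0.02 for all genes tested. The ratios followed transcript GC content across genes less here than under decitabine (Spearman's rho −0.487 over 10965 protein-coding genes, which are not independent replicates), and centring within 20 bins of GC content left the members' median at −1.46. The calls depend on the family of tests. Adjusted within this comparison alone, 2 members passed, ISG15 and USP18, each with a q-value of 0.0274, where 33 of the 15893 genes, or 0.208%, passed. With decitabine against DMSO in siStau1 cells the same adjustment passed 3 members and 7.43% of genes.

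Under decitabine the same comparison of siRNAs, siStau1 DAC against siLuc DAC, gave 1 called member. ISG15 fell, with a log2 ratio of −1.19 (q-value 0.0187) in the authors' deposited table, where 0.904% of 17263 genes were called, 0.434% higher and 0.469% lower. The other 5 members also had ratios below 0, from −0.18 for HERC6 to −1.38 for UBA7, and did not pass. Their levels in siStau1 DAC were between 37.2% and 88.1% of those in siLuc DAC. The median of the members was −0.74, and that of all genes tested −0.14. In this comparison ratios fell with GC content across genes (rho −0.715), and after centring within GC bins ISG15 was at −0.60. Adjusted within the comparison alone, 0 of all 17263 genes passed, a share of 0%, so no member could. The unadjusted p was under 0.05 for 3 members, ISG15, UBA7 and UBE2L6, and for 6.95% of all genes.

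**Figure D3:**
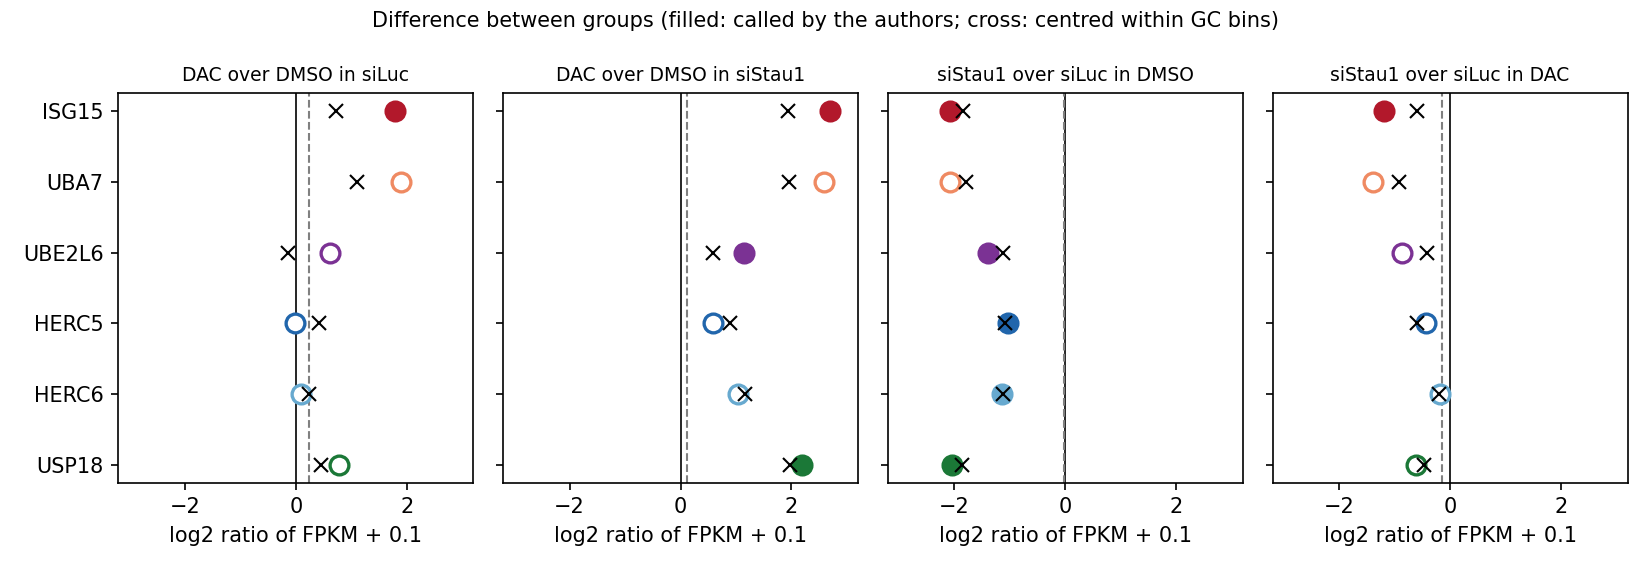
Log2 ratio of FPKM + 0.1 for each member in 4 comparisons, with filled circles for the authors' calls, open circles for the rest, crosses for values centred within GC bins and a dashed line at the median of all genes tested. In siStau1 over siLuc with DMSO, 5 circles are filled and all 6 lie at −1.04 or lower.

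Decitabine in control cells, siLuc DAC against siLuc DMSO, gave 1 called member, the modifier. ISG15 rose, with a log2 ratio of 1.79 (q-value 0.00162) in the authors' deposited table, where 13.5% of 17504 genes were called, 8.71% higher and 4.78% lower. UBA7 had a ratio of 1.89 (q-value 0.175), USP18 0.77 (0.139) and UBE2L6 0.62 (0.265) in that table, none of them called. The 2 ligases had ratios close to 0, at −0.02 for HERC5 and 0.09 for HERC6. The members' median was 0.70, beside 0.23 for all genes tested.

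Ratios to decitabine rose with GC content across genes in siLuc (rho 0.659 over 10953 protein-coding genes). The transcripts of ISG15, UBA7 and UBE2L6 have 63.4%, 58.3% and 57.2% GC, and those of HERC5, HERC6 and USP18 44.1%, 46.3% and 51.6%. After centring within GC bins, ISG15 was at 0.72 and UBA7 at 1.10, UBE2L6 changed sign to −0.14 and HERC5 to 0.42. The members then lay between −0.14 and 1.10. The part of GC content in the difference between modifier and ligases was not tested.

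In siStau1 cells, decitabine gave 3 called members, all higher, where 7.46% of 16979 genes were called, 4.56% higher and 2.89% lower. In the authors' deposited table ISG15 rose by a log2 ratio of 2.69 (q-value 0.00162), USP18 by 2.197 (0.00162) and UBE2L6 by 1.15 (0.0234). HERC6 had a ratio of 1.04 (q-value 0.0609), HERC5 0.58 (0.384) and UBA7 2.59 (0.568) in that table. With a pseudocount of 1 the ratio of UBA7 was 1.24. The members' median was 1.67, and 0.11 for all genes tested. After centring within GC bins ISG15 was at 1.93, UBA7 at 1.96 and the median of the members at 1.54.

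Cell type markers of both kinds differed between the drug treatments. The summed level of the 7 epithelial markers was 2630.0 FPKM with DMSO and 8249 with DAC in siLuc cells, and 2169.7 and 5968 in siStau1 cells. Among them the keratin gene KRT19 was called higher with decitabine in siLuc in the authors' deposited table (536.8 to 1419 FPKM, q-value 0.00162) and EPCAM, an adhesion molecule, lower (259.1 to 116.9 FPKM, q-value 0.0157). The sum of the 7 markers of other cell types was 3.12 FPKM with DMSO and 28.9 with DAC in siLuc cells, and 1.49 and 15.7 in siStau1 cells, with CD68 the highest at 17.1 FPKM in siLuc DAC. PTPRC, which marks blood cells, and COL1A2, which marks fibroblasts, were listed at 0 in both DMSO groups, and PTPRC reached 0.82 FPKM in siStau1 DAC. The part of either kind of marker in the members' ratios was not tested.

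The decitabine ratio was larger in siStau1 than in siLuc for each of the 6 members. The difference was 1.42 for USP18, 0.96 for HERC6, 0.90 for ISG15, 0.70 for UBA7, 0.60 for HERC5 and 0.53 for UBE2L6. Its median was 0.80, beside −0.02 for the genes tested in both arms, and 0.89 after centring within GC bins. The difference itself was not tested, since no value per library was at hand, and it starts from the lower levels of siStau1 DMSO. With both treatments the members lay on both sides of the untreated control. Against siLuc DMSO the levels in siStau1 DAC were 152% for ISG15, 145% for UBA7, 111% for USP18, 93.7% for HERC6, 84.7% for UBE2L6 and 72.97% for HERC5. For this pair 0 members were called in the authors' deposited table and 0 had an unadjusted p under 0.05, against 13.6% of genes, while 4.98% of 16909 genes were called, 4.02% higher and 0.964% lower. Between the extremes of most members, siLuc DAC over siStau1 DMSO, 5 were called higher, all but UBA7, in that table, with 16.7% of 17632 genes called, 9.37% higher and 7.31% lower.

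The balance of modifier to machinery, as a ratio of FPKM within a group, varied between groups. ISG15 stood above UBE2L6 by 19.0 times with DMSO and 42.8 with DAC in siLuc cells, and by 11.8 and 34.1 times in siStau1 cells. Above HERC5 it stood by 24.1, 84.5, 11.7 and 50.2 times in the same order. For USP18 the ratio was 48.1, 97.2, 47.2 and 65.7, so the 2 DMSO groups were close in it. For UBA7 it lay between 917 and 1364, but UBA7 was at 0.235 FPKM in siStau1 DMSO and no pair of groups was called for it. These ratios carry no error, because the table gives none, and they concern RNA and not protein.

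**Figure D4:**
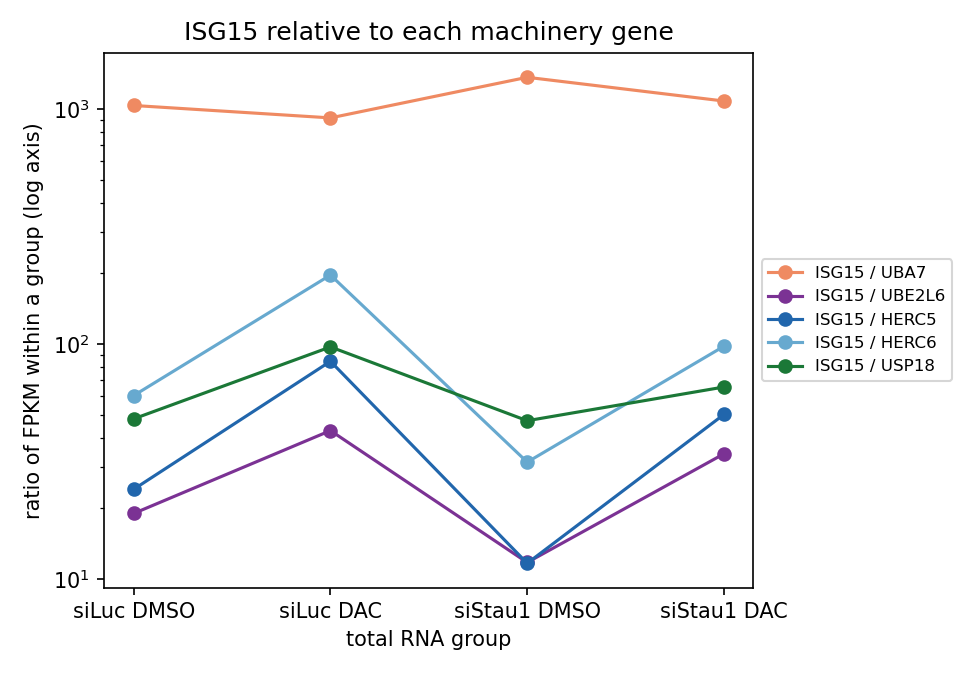
FPKM of ISG15 divided by that of each machinery gene within a group (log axis), with lines as a guide. The ratio to HERC5 goes from 11.7 in siStau1 DMSO to 84.5 in siLuc DAC. The ratio to UBA7 lies between 917 and 1364 and rests on low values, with UBA7 at 0.235 FPKM in siStau1 DMSO.

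Ubiquitin and other ubiquitin-like modifiers were set beside ISG15. UBB, which encodes a chain of ubiquitin units, had 1428 FPKM with DMSO and 1917 with DAC in siLuc cells, and 985.1 and 1795 in siStau1 cells. RPS27A, which encodes ubiquitin fused to a ribosomal protein, had 1779 and 972.6 FPKM in siLuc cells, and 1478 and 1295 in siStau1 cells. ISG15 was below both genes in the 2 DMSO groups and above both in the 2 DAC groups. Of 10 modifier genes described here, 9 were tested, and the authors' deposited table called 0 of them in the 4 comparisons of drug or siRNA. The smallest q-value there was 0.0992, for RPS27A with decitabine in siLuc. Of all genes tested, between 0.799% and 13.5% were called in these comparisons. The median log2 ratio of the modifier list for siStau1 over siLuc was −0.46 in DMSO and 0.24 in DAC. UBD, the other modifier known to be inducible by cytokines, was at or below 0.108 FPKM. Ubiquitin and ribosomal fusion genes have near-identical pseudogene copies, and their values are uncertain.

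Of the 8 paralogs on the ubiquitin side, 7 were tested. With decitabine 1 of them was called in each arm, higher, beside 8.71% of all genes tested called higher in siLuc and 4.56% in siStau1. UBA1 was called higher with decitabine in both arms in the authors' deposited table (q-values 0.0142 and 0.0377), with log2 ratios of 1.09 in siLuc and 0.92 in siStau1, or 0.33 and 0.37 after centring within GC bins. Between siStau1 and siLuc 0 of the 7 were called in either drug treatment. That is near the share of all genes tested, 0.799% in DMSO and 0.904% in DAC.

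**Figure D5:**
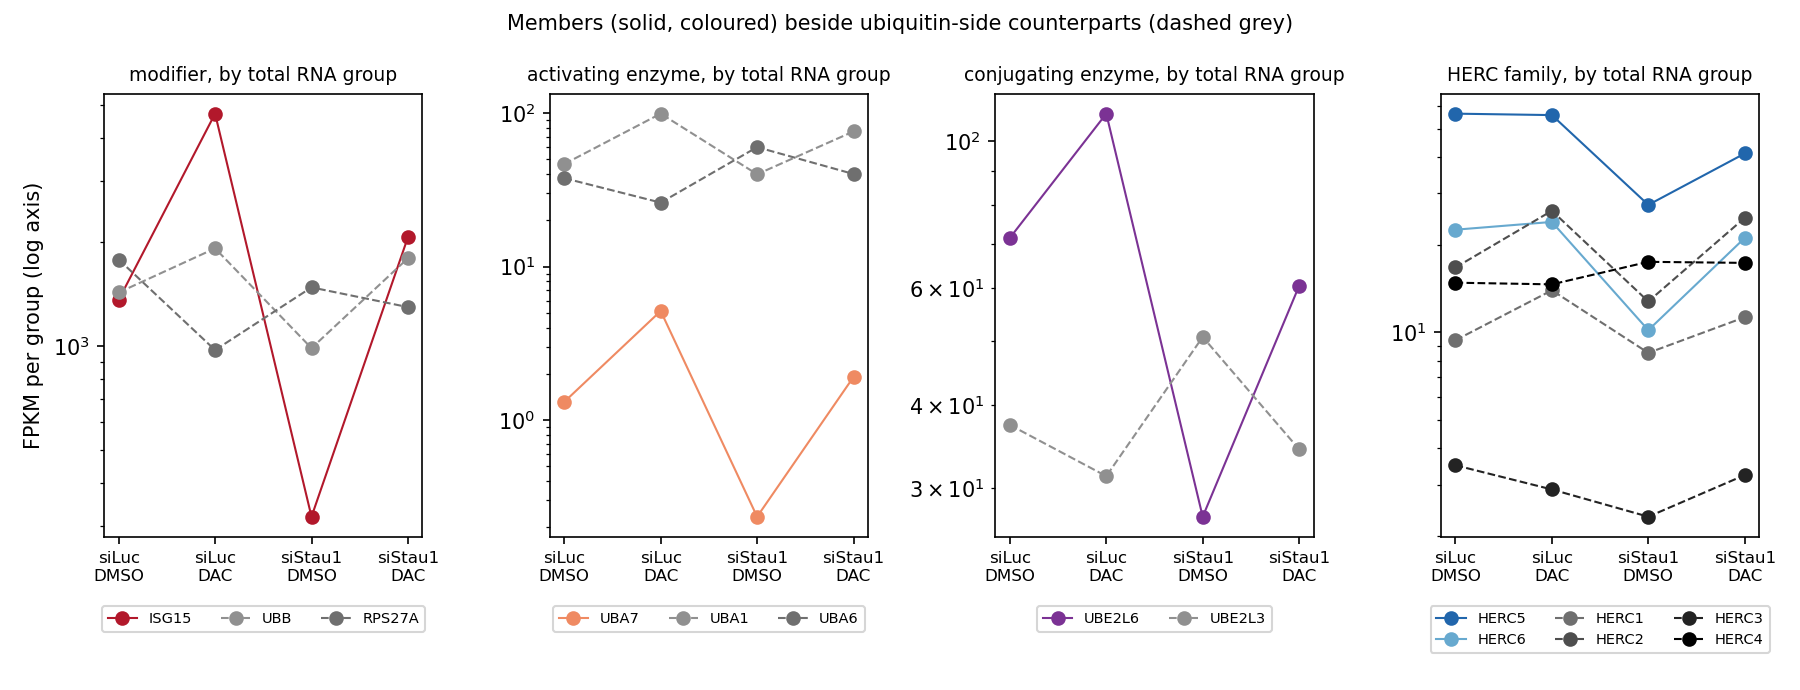
FPKM (log axis, a scale per panel) of members (solid, coloured) and of their ubiquitin-side counterparts (dashed, grey) in the 4 groups, with lines as a guide. UBE2L6 is below UBE2L3 only in siStau1 DMSO, and ISG15 is above UBB and RPS27A in siLuc DAC and siStau1 DAC.

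Among 8 other genes tied to ISG15, 6 were tested, and 3 were called with decitabine in both arms. The share of all genes tested that was called with decitabine was 13.5% in siLuc and 7.46% in siStau1. STAT2, which also tethers USP18 to the interferon receptor, rose with decitabine to 52.8 from 22.6 FPKM in siLuc cells and to 32.2 from 13.3 in siStau1 cells (both with q-value 0.0142 in the authors' deposited table). SKP2, a ubiquitin ligase subunit, fell from 32.5 to 13.1 FPKM and from 31.4 to 13.6 (q-values 0.0423 and 0.0234 in that table). USP16, a ubiquitin protease reported to act on ISG15, fell from 26.7 to 7.03 FPKM and from 41.3 to 15.8 (q-values 0.00162 and 0.00293 in that table). The ligases TRIM25 and ARIH1, between 82.9 and 155.6 FPKM and between 32.1 and 41.7 FPKM, were called in no comparison. ITGAL and ITGB2, whose product LFA-1 binds extracellular ISG15, were below 0.5 FPKM throughout. Between siStau1 and siLuc 0 of the 6 were called in either drug treatment, beside 0.799% of all genes tested in DMSO and 0.904% in DAC.

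Described here are 13 genes whose proteins have been reported to carry ISG15, all of them tested. For siStau1 over siLuc in DMSO the authors' deposited table called DDX58, which encodes the RNA sensor RIG-I (41.5 to 20.2 FPKM, q-value 0.0279), and IFIT1, which binds viral RNA (207.1 to 79.4 FPKM, q-value 0.0393), both lower. Under decitabine it called MX1, an antiviral GTPase, lower in siStau1 (265.5 to 117.9 FPKM, q-value 0.00525). With decitabine it called 2 of the 13 higher and 2 lower in siLuc, which were MX1 and IRF3 against PCNA and CHMP5. In siStau1 it called 3 higher and 1 lower, which were MX1, DDX58 and IFIH1 against PCNA. Of all genes tested with decitabine against DMSO, 8.71% were called higher and 4.78% lower in siLuc, and 4.56% and 2.89% in siStau1. Called lower in siStau1 than in siLuc were 0.466% of all genes tested in DMSO and 0.469% in DAC. The list's median log2 ratio was −0.13 for decitabine in siLuc, 0.04 in siStau1, −0.29 for siStau1 over siLuc in DMSO and 0.21 in DAC.

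Of the transcription factors of the interferon response, STAT2, IRF9, IRF1, IRF7 and IRF3 were all tested. For siStau1 over siLuc in DMSO their log2 ratios lay between −1.04 and −0.29. The authors' deposited table called 0 of them there, beside 0.799% of all genes tested. Under decitabine it called IRF7 lower in siStau1, at 32.9 against 78.5 FPKM (q-value 0.00825). With decitabine it called STAT2, IRF7 and IRF3 higher in siLuc, and STAT2 and IRF7 in siStau1. The shares of all genes tested that were called higher with decitabine were 8.71% in siLuc and 4.56% in siStau1. Under decitabine 0.469% were called lower in siStau1 than in siLuc. IRF9 had 62.1 FPKM with DMSO and 78.1 with DAC in siLuc cells, and 30.2 and 61.7 in siStau1 cells.

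The genes next to the members on the chromosome were looked at last, a choice made after the members' values were seen. Of the 10 nearest protein-coding neighbours outside the members, 7 were tested for siStau1 over siLuc in DMSO, and the authors' deposited table called 0 of them. Of all genes tested there 0.799% were called, so 0 among 7 is near that share. HES4, a transcriptional repressor, lies 966 bases from the edge of the ISG15 gene model, which begins at 1001138. The ISG15 promoter window shown above lies further from HES4, at 1013247 to 1013546. HES4 had 11.1 FPKM with DMSO and 66.7 with DAC in siLuc cells, and 10.4 with DMSO and 28.7 with DAC in siStau1 cells. It was called higher with decitabine in both arms in that table (q-values 0.00162 and 0.0366) and lower with siStau1 under decitabine (0.0272). In DMSO its log2 ratio of siStau1 over siLuc was −0.09, where that of ISG15 was −2.09. AGRN, on the other side of ISG15, had 2.90 FPKM with DMSO and 13.8 with DAC in siLuc cells, and 3.09 and 7.28 in siStau1 cells. It was called higher with decitabine in siLuc (log2 ratio 2.21, q-value 0.00162) but not in siStau1 (q-value 0.137) in that table. Of the 7 neighbours tested with decitabine in siLuc, 2 were called higher and 1 lower, beside 8.71% and 4.78% of all genes tested. PYURF, beside HERC5, went from 46.2 to 13.96 FPKM with decitabine in siLuc and was called lower there (q-value 0.00162).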

How the data were processed

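Total RNA of HCT116 cells was sequenced in 8 libraries, 2 in each of 4 groups. The kits named in the labels' protocols are stranded, with ribosomal RNA removed. The submitters' processing notes name HISAT2 2.1.0, Cuffdiff 2.2.1, Cuffnorm 2.2.1 and the hg38 build, with no role for each. Per the file headers, the authors' deposited table has the layout of Cuffdiff, with FPKM values per group and a p-value and q-value for each of 6 pairs of groups. The deposited q-value was recomputed and is a Benjamini-Hochberg value over 102180 tests of all pairs (largest gap 5.27e-07). The smallest deposited p-value is 5e-05. The table gives no depth, no library values and no error, so calls are the authors' own at a q-value under 0.05 and no test was run here.

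Log2 ratios were computed in Python 3.11.15 (pandas 2.3.3) from FPKM with a pseudocount of 0.1, so changes of low genes are understated. GC content and positions come from GENCODE 29. GC centring subtracts the median of protein-coding genes in 20 bins and was tested on simulated data, as was the adjustment. Alternatives were pseudocounts of 1 and 0.01, centring, scaling to protein-coding sums, q-value limits of 0.01 and 0.1, adjustment within a comparison and leaving out each member. Named genes are all members, called genes and extremes of the other lists, and the 5 nearest profiles. The members and lists were chosen with earlier results of these data known. The antibody-enriched libraries hold repeat elements and no gene values, and were not used here. Some genes of the lists are not reported here.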

Additional observations from a re-analysis of the deposited data

How the results depend on the processing

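No paired analysis was possible because the deposited table gives 1 value per group and none per library. For the same reason fits without single replicates were not run. The count of 5 members called for siStau1 over siLuc in DMSO was 3 at a q-value limit of 0.01 and 2 when adjusted within that comparison. The count of 1 for siStau1 over siLuc in DAC was 0 at a limit of 0.01, 3 at a limit of 0.1 and 0 when adjusted within that comparison. The median log2 ratio of members for siStau1 DAC over siLuc DMSO, 0.03, changed sign when single members were left out, from −0.094 (without ISG15, UBA7 or USP18) to 0.15. For the medians of the other comparisons and for the difference between arms, every alternative run kept the sign and stayed within 1.5 times on the ratio scale. The ratios of single members moved by more than that, or changed sign, in 8 cases with centring within GC bins, in 2 with a pseudocount of 1 (UBA7) and in 1 with scaling to protein-coding sums, where HERC6 for siStau1 DAC over siLuc DMSO was 0.04 in place of −0.09. The depth behind each value is unknown, so it cannot be said which differences the libraries could not have shown.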
